A study of Mus musculus with 101 samples.

Results

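Nanog, Zfp42, Tbx3 and Dppa3 are genes whose activity marks naive pluripotent cells, and their regions formed the category that the deposited region table names "nPSC-associated". That category held 4 of the 868 target regions, and all 4 are described here; membership depended on the category name alone and on no measured value. The assay was EM-seq, enzymatic methyl sequencing, which protects methylated cytosines and converts unmethylated ones with enzymes. Selected regions were captured with a Twist panel. Each sample was a line of mouse embryonic stem cells from the Diversity Outbred stock, an outbred population in which each animal, and so each line, carries its own mixture of founder genomes. All lines shared a single culture condition, serum and leukaemia inhibitory factor (LIF) plus 2i, which combines inhibitors of MEK and GSK3 and holds cells in the naive state. The table had 85 columns, each treated as a line. The grouping compared here was the prefix of the line name: 28 lines began with B1, 18 with B2, 20 with B3A and 19 with B3B. A final N was on 31 column names and absent from 54, and 16 lines (5 B1, 4 B2, 4 B3A, 3 B3B) had a second title ending in WA. One line name, B1dB37, occurred both with and without the final N, and these columns were counted separately. With 1 column for each line name, 84 in all, no call described here for the members changed. The sources used here do not give the meaning of a prefix, N or WA, nor the sex or passage of a line. The 16 lines with 2 titles stood apart, with a median of 33 missing regions (range 25 to 43) against 63 (range 25 to 173) in the other 69, and results without them are given where they differ. No RNA was measured, so the activity of the 4 genes in these lines is not known from these data, and methylation of a few cells in full cannot be told apart from low methylation of many.

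Nanog encodes a homeodomain transcription factor at the core of the pluripotency network. Zfp42, also called Rex1, encodes a zinc finger protein used as a marker of naive cells, and Tbx3 encodes a T-box transcription factor that helps to sustain self-renewal. Dppa3, also called Stella or PGC7, encodes a protein that protects the maternal genome from demethylation in the zygote and interferes with maintenance methylation in naive cells. Promoters of active genes are usually free of CpG methylation, and naive cells in 2i have low methylation across the genome.

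Coordinates are those of mm10, which the RefSeq gene table of GRCm38.p6 shares. The Nanog region (gene ID 71950; chr6:122706796-122707321) covered 526 bases and ended 168 bases before the gene start at 122707489. The Zfp42 region (gene ID 22702; chr8:43306668-43307433) covered 766 bases and spanned the transcription start of this minus-strand gene, from 424 bases upstream to 341 bases downstream. The Tbx3 region (gene ID 21386; chr5:119670842-119671421) covered 580 bases inside the gene, beginning 308 bases from its lower-coordinate end, and also overlapped the antisense gene Tbx3os1. The Dppa3 region (gene ID 73708; chr6:122625966-122626392) covered 427 bases and ended 32 bases before the lower-coordinate end of the gene. Dppa3 and Nanog are neighbours, and their regions lay 80404 bases apart. The gene table gives no exons, so none is named.

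RefSeq promoter windows, which run from 250 bases before a transcription start to 50 bases after it, are printed for the 2 members that the RefSeq table holds, to show where CpGs lie around the starts. They are written 5′ to 3′ in lower case, and the capitals mark CpGs. The Nanog window (GRCm38.p6, plus strand) is chr6:122707239-122707538, for the start at 122707489, and the Zfp42 window (GRCm38.p6, minus strand) is chr8:43306960-43307259.
Nanog: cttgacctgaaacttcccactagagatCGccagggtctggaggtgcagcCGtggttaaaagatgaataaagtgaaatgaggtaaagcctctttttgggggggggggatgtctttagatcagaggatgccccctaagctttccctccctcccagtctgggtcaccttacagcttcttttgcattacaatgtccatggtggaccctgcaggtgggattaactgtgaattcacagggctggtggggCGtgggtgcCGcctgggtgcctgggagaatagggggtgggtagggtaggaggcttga
Zfp42: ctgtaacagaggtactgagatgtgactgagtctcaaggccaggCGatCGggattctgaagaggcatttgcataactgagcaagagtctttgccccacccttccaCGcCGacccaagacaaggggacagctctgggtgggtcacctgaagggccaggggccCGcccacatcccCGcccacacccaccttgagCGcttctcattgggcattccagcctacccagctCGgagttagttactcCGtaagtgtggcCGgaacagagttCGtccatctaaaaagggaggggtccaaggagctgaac
The Nanog window held 4 CpGs, of which 2 lay in the 83 bases that the target region covered, so most of it lay outside the measured sequence. A further Nanog window in the table, for a start at 122707565, had 7 bases and 0 CpGs in the target region and is not printed. All 300 bases of the Zfp42 window, with its 11 CpGs, lay inside its target region. Over 32851 promoter windows in the table the median was 7 CpGs; 31.4% had fewer than the Nanog window and 58.6% had fewer than the Zfp42 window. Both windows also held the octamer-like motif TTTGCAT, searched on both strands, 75 bases before the first Nanog start (151 before the other) and 185 bases before the Zfp42 start. This motif was present in 1520 windows (4.63%), and a match is a description of the letters alone.

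Methylation was close to 0 at Nanog, Zfp42 and Tbx3 and higher at Dppa3. The deposited region averages are given as percent of methylated cytosines. Nanog ranged from 0 to 2.56% with a median of 0, a mean of 0.360% ± 0.599 (SD, n = 85), and 49 lines at 0. Zfp42 ranged from 0 to 9.09% with a median of 0, a mean of 0.792% ± 1.44 (SD, n = 80), and 44 lines at 0. Tbx3 was the lowest of the 4, from 0 to 1.91% with a median of 0, a mean of 0.191% ± 0.381 (SD, n = 83), and 51 lines at 0. At each of these 3 genes more lines were at 0 than above it, and the SD exceeded the mean. In the 16 lines with 2 titles, fewer lines were at 0 than above it, 2 for Nanog, 3 for Zfp42 and 5 for Tbx3. The other lines had 47 of 69, 41 of 64 and 46 of 67 at 0. Among the lines with 2 titles the SD exceeded the mean at Tbx3 alone. Means in the lines with 2 titles were 0.586% ± 0.580 for Nanog, 1.34% ± 1.26 for Zfp42 and 0.345% ± 0.454 for Tbx3 (SD, n = 16 each). In the other lines they were 0.308% ± 0.595 (SD, n = 69), 0.655% ± 1.46 (SD, n = 64) and 0.154% ± 0.355 (SD, n = 67). These 16 lines also had a higher library mean, the mean of the 620 regions (members left out) that had a value in every line, of 22.6% ± 11.8 (SD, n = 16) against 16.8% ± 8.65 (SD, n = 69). The part of missing regions and of library mean in this difference was not tested. Dppa3 ranged from 0 to 22.7% with a median of 4.58% and a mean of 6.26% ± 6.47 (SD, n = 64), and 19 lines were at 0. Its mean was 9.36% ± 6.48 (SD, n = 16) in the lines with 2 titles, of which 1 was at 0, and 5.23% ± 6.19 (SD, n = 48) in the others. Dppa3 exceeded 5% in 30 lines and 10% in 14, whereas Zfp42 exceeded 5% in 1 line and Nanog and Tbx3 in none. Without read counts in the tables, the depth behind a 0 is unknown and no upper limit is given for it.

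The members differed in level within the same lines. Dppa3 exceeded Nanog by a mean of 5.90 points in lines with both values, with Dppa3 higher in 45 of 64 lines, lower in 4 and equal in 15 (sign-flip permutation test, two-sided, p = 1e-05, adjusted over the 6 pairs p = 2e-05). The Dppa3 values also exceeded Zfp42 by 5.58 points (higher in 43 of 63 lines) and Tbx3 by 6.07 points (higher in 45 of 64 lines), each with the same p by this permutation test, which is the smallest that 100000 resamples can give. Among the other 3 genes the gaps were under 1 point. Zfp42 exceeded Tbx3 by 0.608 points (higher in 35 of 79 lines, lower in 16; permutation p = 7e-05, adjusted p = 0.000105). Nanog exceeded Tbx3 by 0.178 points (higher in 29 of 83 lines, lower in 22; permutation p = 0.00829, adjusted p = 0.00995). Nanog lay 0.417 points below Zfp42 (lower in 31 of 80 lines, higher in 17; permutation p = 0.0127, adjusted p = 0.0127), and this difference no longer passed 0.05 without the lines with 2 titles (0.332 points lower, permutation adjusted p = 0.106) or in columns without a final N (0.298 points lower, permutation adjusted p = 0.0972). The order of means was thus Dppa3, Zfp42, Nanog, Tbx3. The median within-line difference was 0 for each pair among Nanog, Zfp42 and Tbx3.

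Of the 79 lines with a value at Nanog, Zfp42 and Tbx3, 22 had all 3 at 0, 49 had all 3 under 1%, and 11 had all 3 above 0. Among the 63 lines with all 4 values, Dppa3 was the highest of the 4 in 43. In 8 lines all 4 were at 0, and in 10 lines Dppa3 was at 0 while another member was above 0. The single highest value of each gene fell in a different line. Lower ranks could share a line: B3Bd44N ranked 2 for Zfp42 (4.40%) and 3 for Dppa3 (19.4%). Line B3Bd15N had the highest Zfp42 value, 9.09%, with Nanog at 0, Tbx3 at 0.568% and no Dppa3 value. This line lacked 100 regions, against a median of 58 per line. Line B3Bd8 had the highest Dppa3 value, 22.7%, with Zfp42 at 0.163%, Tbx3 at 0 and Nanog at 1.28%. Line B1dB14 had the highest Tbx3 value, 1.91%, with Zfp42 at 0, Nanog at 1.39% and Dppa3 at 10.7%. Line B2d24 had the highest Nanog value, 2.56%, with Zfp42 at 1.06%, Tbx3 at 0 and no Dppa3 value.

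**Figure D1:**
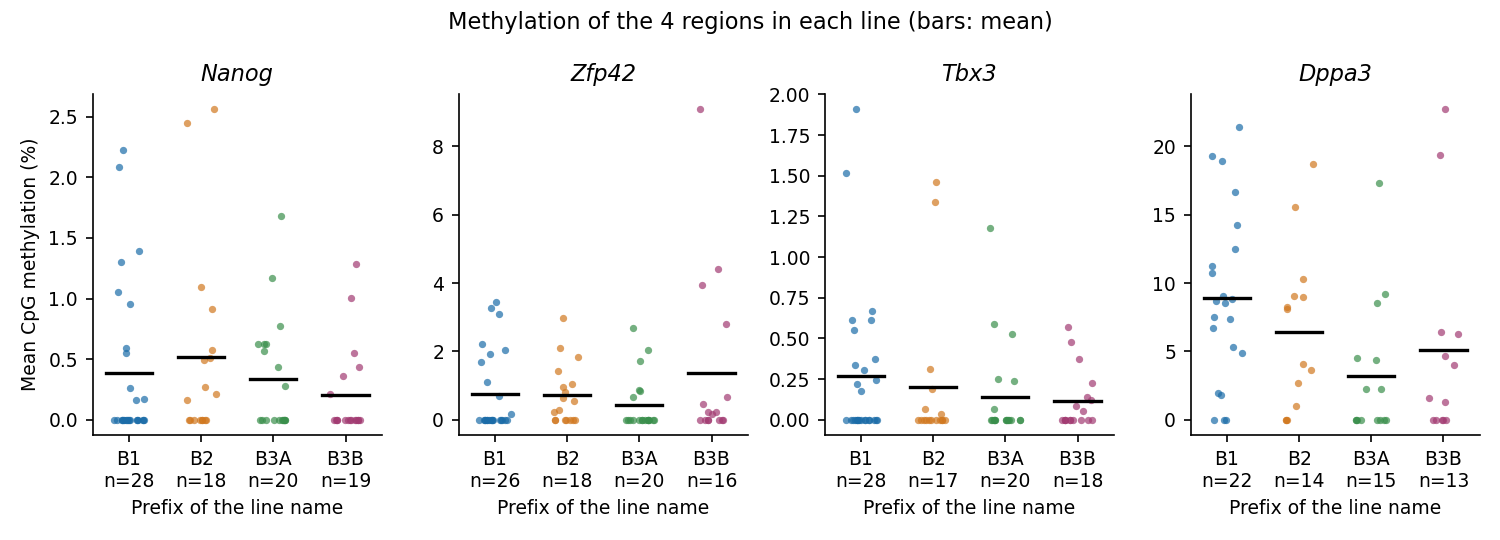
Mean CpG methylation (%, y axis, scaled separately for each gene) of the Nanog, Zfp42, Tbx3 and Dppa3 regions in each line, by prefix of the line name (x axis, with n); points are lines, spread sideways at random, and bars are means. Most lines sit at or near 0 for Nanog, Zfp42 and Tbx3, with single lines reaching 2.56%, 9.09% and 1.91%, whereas Dppa3 values spread up to 22.7%.

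A Dppa3 value was missing in 21 lines: 6 of prefix B1, 4 of B2, 5 of B3A and 6 of B3B. These lines lacked more regions in all, with a median of 93 missing (range 57 to 173) against 50.5 (range 25 to 109) in the 64 lines with a Dppa3 value. Their library mean was 14.1% ± 6.24 (SD, n = 21) against 19.1% ± 10.1 (SD, n = 64). Dppa3 is therefore described in lines with fewer missing regions, and how its level would read in the other 21 was not tested.

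Against the whole panel, Nanog, Zfp42 and Tbx3 stood at the low end of a continuous range. Of the 819 regions present in 50% of lines or more, 5 (0.611%) had a lower mean than Tbx3, 26 (3.17%) a lower mean than Nanog and 72 (8.79%) a lower mean than Zfp42. Dppa3 stood higher, above 241 regions (29.4%). Other regions shared such low levels: 86 regions outside the category also had a mean under 1%, with a median SD of 0.527 points and a median of 15.3% of lines at 0 (range 0 to 77.0%). The corresponding shares at 0 were 57.6% for Nanog, 55.0% for Zfp42 and 61.4% for Tbx3, inside that range. For Dppa3, the 60 other regions with a mean of 5 to 8% had a median SD of 5.29 points and a median of 0.588% of lines at 0 (range 0 to 55.4%), beside 6.47 points and 29.7% at Dppa3.

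The Lineage-associated category of the same table, with 21 regions, was used for comparison. Its mean per line was 16.9% ± 8.99 (SD, n = 85). Nanog lay below that mean by 16.6 points and was lower in 85 of 85 lines, Zfp42 by 16.5 points in 80 of 80 and Tbx3 by 16.8 points in 83 of 83 (sign-flip permutation tests, two-sided, each p = 1e-05, the smallest these can give). Dppa3 lay 11.9 points below it, lower in 63 of 64 lines and higher in 1 (permutation p = 1e-05). Against the median of the 21 regions in place of their mean, the gap was 6.14 points for Dppa3, which was higher in 10 of 64 lines, and 10.98 points for Nanog, 10.9 for Zfp42 and 11.2 for Tbx3 (permutation p = 1e-05 for each). The category mean hides a wide range. Of its 21 regions, 2 had a lower mean than Nanog, 3 than Zfp42, 8 than Dppa3 and 0 than Tbx3. A region near 0 would lie below a mean of this size in nearly any line. These tests therefore do not set Nanog, Zfp42 and Tbx3 apart from other regions with low means.

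**Figure D2:**
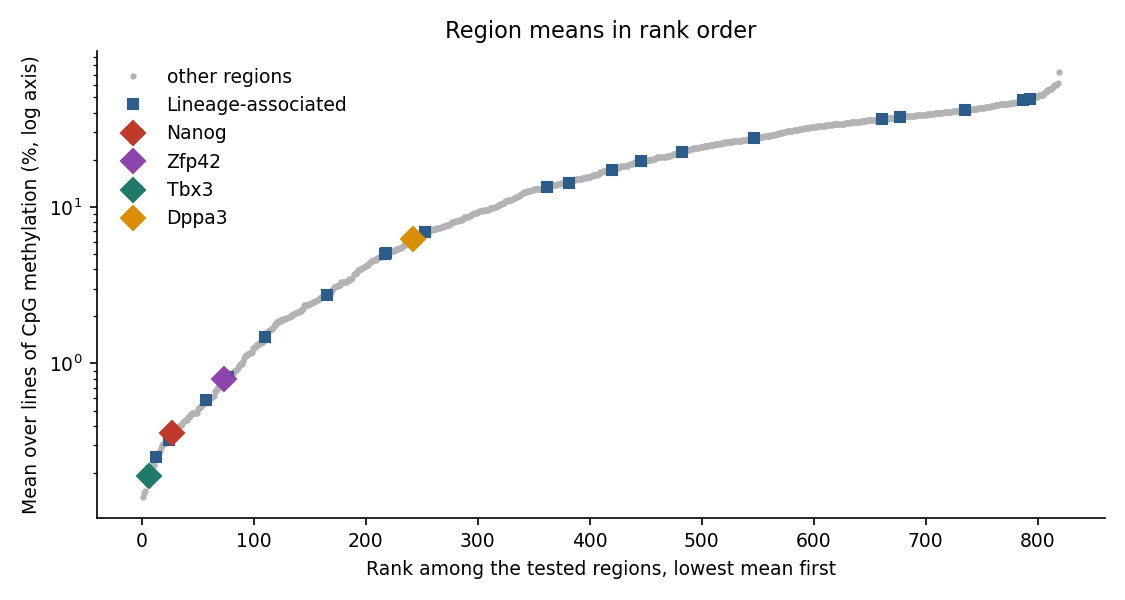
Mean over lines of CpG methylation (%, log y axis) of the 819 regions against their rank (x axis, lowest first); grey points are other regions, blue squares the Lineage-associated regions and diamonds the 4 genes. Tbx3, Nanog and Zfp42 stand among the lowest regions with 5, 26 and 72 regions below them, and Dppa3 has 241 below it.

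The prefixes of the line names differed across most of the panel, and 1 of the 4 members was among the regions that did. By limma's moderated F test on the log2 odds of methylation, 666 of 819 regions (81.3%) differed between the 4 prefixes at an adjusted p under 0.05, and Dppa3 was the member that passed. The Nanog mean was 0.384% ± 0.655 (SD, n = 28) for B1 lines, 0.514% ± 0.798 (SD, n = 18) for B2 lines, 0.339% ± 0.473 (SD, n = 20) for B3A lines and 0.203% ± 0.376 (SD, n = 19) for B3B lines. The groups overlapped throughout, each with lines at 0 (limma adjusted p = 0.579). Zfp42 had means of 0.756% ± 1.18 (SD, n = 26), 0.719% ± 0.877 (SD, n = 18), 0.440% ± 0.807 (SD, n = 20) and 1.37% ± 2.53 (SD, n = 16) in the same order (limma adjusted p = 0.560). Without line B3Bd15N the B3B mean was 0.860% ± 1.52 (SD, n = 15), a factor of over 1.5 lower but still the highest (limma adjusted p = 0.747). The Zfp42 values of rank 2 and 3, 4.40% in B3Bd44N and 3.94% in B3Bd27N, were also in B3B. These columns all end in N. The B3B mean was 1.99% ± 3.20 (SD, n = 9) with a final N and 0.586% ± 1.01 (SD, n = 7) without it. Tbx3 had means of 0.269% ± 0.468 (SD, n = 28), 0.20% ± 0.459 (SD, n = 17), 0.143% ± 0.302 (SD, n = 20) and 0.114% ± 0.181 (SD, n = 18), again with overlap and no call (limma adjusted p = 0.655). A single line carried much of some Tbx3 means: the B2 mean was 0.121% without B2d5 and the B3A mean was 0.0884% without B3Ad21N. Among the 86 other regions with a mean under 1%, 15 (17.4%) were called between prefixes.

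By mean over all columns, Dppa3 was highest in B1 lines and lowest in B3A lines. In B1 lines it ranged from 0 to 21.4% with a median of 8.60% and a mean of 8.90% ± 6.36 (SD, n = 22). In B2 lines it ranged from 0 to 18.7% with a median of 6.12% and a mean of 6.46% ± 5.87 (SD, n = 14). In B3A lines it ranged from 0 to 17.3% with a median of 0 and a mean of 3.23% ± 5.01 (SD, n = 15). In B3B lines it ranged from 0 to 22.7% with a median of 1.56% and a mean of 5.10% ± 7.51 (SD, n = 13). All 4 groups included lines at 0, 3 of 22 in B1 and 8 of 15 in B3A, and overlapped over nearly their whole range. The limma adjusted p was 0.0199, and it was 0.00902 without the line with the highest Dppa3 value. With B1 and B3A lines alone, Dppa3 was lower in B3A by 1.66 on the log2 odds scale (B3A minus B1 = -1.66; limma adjusted p = 0.00274). That fit called 681 of 816 regions (83.5%), and 63.7% of regions had a smaller p than Dppa3. Of the Dppa3 values, 12 of 15 in B3A came from columns with a final N, against 5 of 22 in B1, so prefix and N cannot be told fully apart. Among columns with a final N the mean was highest in B3B, 6.41% ± 7.69 (SD, n = 5). It was 5.84% ± 8.10 (SD, n = 5) in B1 and 3.30% ± 5.54 (SD, n = 12) in B3A. In columns without it the mean was 9.80% (n = 17) in B1 and 6.46% (n = 14) in B2. It was 4.29% (n = 8) in B3B and 2.95% (n = 3) in B3A. Among the 60 other regions with a mean of 5 to 8%, 47 (78.3%) were called between prefixes.

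The library mean moved with the prefix in the same order as Dppa3. Its mean was 22.99% ± 8.76 (SD, n = 28) for B1 lines, 19.5% ± 7.98 (SD, n = 18) for B2 lines, 12.1% ± 7.36 (SD, n = 20) for B3A lines and 14.9% ± 10.003 (SD, n = 19) for B3B lines. With the library mean as a covariate in the limma fit, 22 of 819 regions (2.69%) were called between prefixes, and Dppa3 was not (adjusted p = 0.843). The Dppa3 call was also lost on untransformed fractions (limma adjusted p = 0.0741), among columns with a final N (adjusted p = 0.534) and among the lines with at most the median number of missing regions (adjusted p = 0.221). In columns without a final N the Dppa3 call held (limma adjusted p = 0.0331), and 549 of 823 regions (66.7%) were called there. Among columns with a final N 2 of 813 regions were called. The final N itself was spread unevenly, on 31 columns in all and on none of prefix B2. Its part in these differences was not tested.

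Dppa3 rose with the library mean, as nearly all regions did, and no such rise was called at the other 3 genes. In the limma slope fit 778 of 819 regions (95%) rose with the library mean at an adjusted p under 0.05 and 0 fell (0 at an unadjusted p under 0.05), with a median slope of 1.11 on the log2 odds scale per 10 points of library mean. Dppa3 rose by 1.01 ± 0.17 (SE, n = 64; limma adjusted p = 9.65e-08), near the median of all regions and of the 60 regions of like level (median 0.82, of which 59 rose). The slope was 0.11 ± 0.06 (SE, n = 85) for Nanog (limma adjusted p = 0.0701), 0.16 ± 0.09 (SE, n = 80) for Zfp42 (limma adjusted p = 0.0923) and 0.01 ± 0.04 (SE, n = 83) for Tbx3 (limma adjusted p = 0.851). Regions of like level were called elsewhere: of the 86 other regions with a mean under 1%, 53 (61.6%) rose, with a median slope of 0.13. The slopes of Nanog and Zfp42 lay near that median. The median slope was thus smaller in these 86 regions than in the 60 regions at the level of Dppa3. A trend of slope with level over the panel was not tested. The size of the slopes depended on the offset. At an offset of 0.001 the slope was 0.35 for Nanog, 0.42 for Zfp42, 0.03 for Tbx3 and 1.66 for Dppa3, and at an offset of 0.1 it was 0.02, 0.03, 0.0016 and 0.40. The calls were the same at both, with Dppa3 past the threshold and the other 3 not.

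**Figure D3:**
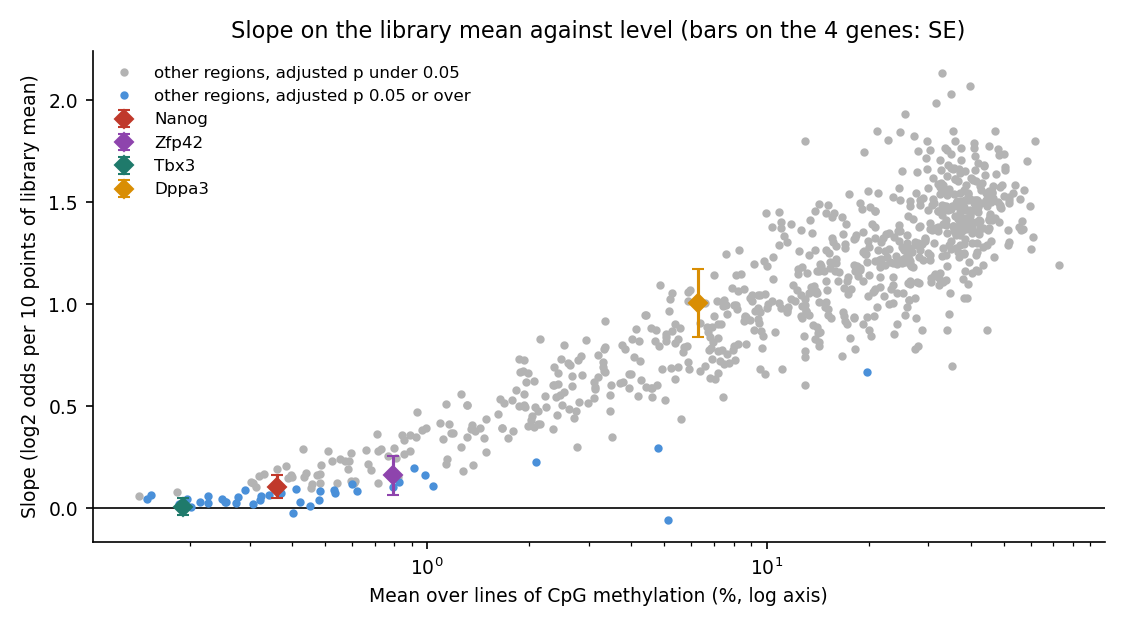
Slope on the library mean (log2 odds per 10 points, y axis) of the 819 regions against their mean over lines (%, log x axis); grey and blue points are other regions that did and did not pass an adjusted p of 0.05, and diamonds with SE bars are the 4 genes. The median slope was 0.13 over the 86 other regions with a mean under 1%, 0.82 over the 60 of 5 to 8% and 1.11 over all 819. Dppa3 (1.01) lies within the range of those 60 regions (-0.06 to 1.25). Tbx3 (0.01), Nanog (0.11) and Zfp42 (0.16) lie within the range of those 86 (-0.02 to 0.47).

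On the percent scale the correlation of Dppa3 with the library mean was r = 0.635 and rho = 0.633 (n = 64; permutation tests, two-sided, each p = 1e-05), and r was 0.651 without the 2 lines farthest from the median library mean. Within a prefix, the Dppa3 correlation was r = 0.455 for B1, 0.379 for B2, 0.476 for B3A and 0.888 for B3B lines. Among B3B lines rho was lower, 0.379, and without the highest Dppa3 value r was 0.793 and rho 0.203 (n = 12). With the prefix as a covariate in limma the Dppa3 slope was 0.90 (adjusted p = 2.14e-05). Nanog had r = 0.190 (permutation p = 0.0811) and rho = 0.180 (permutation p = 0.0982), and r = 0.230 without the 2 farthest lines. For Nanog r was 0.221 (permutation p = 0.0412, adjusted over the members p = 0.0825) with the median over regions as the library level. The Nanog r was 0.0970 (permutation p = 0.382) with the region average recomputed from its CpGs. Zfp42 had r = 0.153 (permutation p = 0.177) and rho = 0.220 (permutation p = 0.0504), and r = 0.177 without them. Without line B3Bd44N the Zfp42 r was 0.0923. With the median library level its rho was 0.263 (permutation p = 0.0189, adjusted p = 0.0378), past 0.05. In columns without a final N the Zfp42 rho was 0.310 (permutation p = 0.0297, adjusted p = 0.0594), past 0.05 only before adjustment. Tbx3 had r = 0.0286 (permutation p = 0.798) and rho = 0.0365 (permutation p = 0.741), and r = 0.0430 without them. Within prefixes r ran from 0.0265 to 0.516 for Nanog, from -0.202 to 0.501 for Zfp42 and from -0.142 to 0.0346 for Tbx3. Lines with a high library mean were thus found both at 0 and above 0 for Nanog, Zfp42 and Tbx3.

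**Figure D4:**
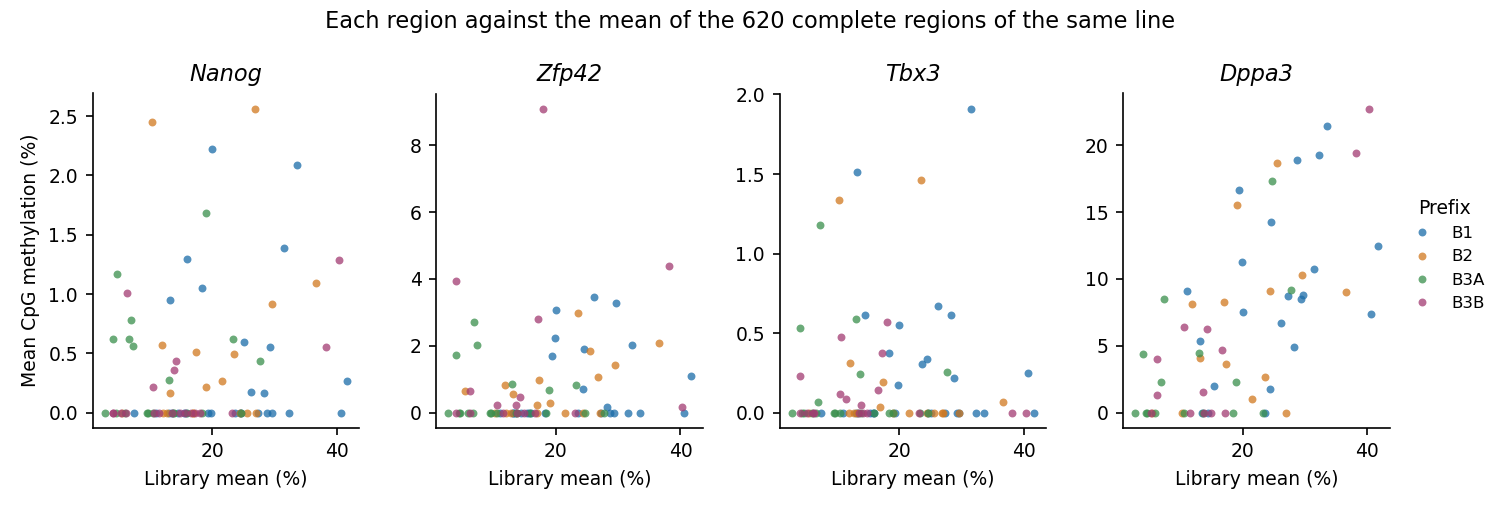
Mean CpG methylation of each of the 4 regions (%, y axis, scaled separately) against the library mean of the same line (%, x axis); points are lines, coloured by prefix. Dppa3 rises with the library mean (r = 0.635), whereas many lines lie at 0 for Nanog (r = 0.190), Zfp42 (r = 0.153) and Tbx3 (r = 0.0286) at low and at high library means.

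Of the 6 pairs of members, 0 correlated past 0.05 by Pearson's r after adjustment over the pairs (2 by unadjusted permutation p), and 1 did by rank. Zfp42 and Dppa3 had r = 0.281 (n = 63; permutation p = 0.0251, adjusted p = 0.0752) and rho = 0.356 (permutation p = 0.00472, adjusted p = 0.0283). For this pair r was 0.206 without the 2 farthest lines and ran from 0.126 to 0.400 within prefixes; without the lines with 2 titles it was 0.514 (permutation adjusted p = 0.00378), and within those 16 lines it was -0.468. In columns without a final N the rank call was lost (rho = 0.305, permutation adjusted p = 0.215; r = 0.183, adjusted p = 0.508). Nanog and Tbx3 had r = 0.298 (n = 83; permutation p = 0.00976, adjusted p = 0.0586) but rho = 0.179 (permutation p = 0.108, adjusted p = 0.161). Here r was 0.246 without the 2 farthest lines, 0.196 without line B2d27, and between -0.333 and 0.388 within prefixes. Nanog and Dppa3, the neighbours on chromosome 6, had r = 0.154 and rho = 0.205 (n = 64; permutation p = 0.226 and p = 0.105, adjusted p = 0.340 and p = 0.161). For these neighbours r was 0.0479 without line B1dB40 and ran from -0.230 to 0.736 within prefixes. For Nanog and Zfp42 r was 0.0380 but rho was 0.254 (n = 80, permutation p = 0.0237, adjusted p = 0.0711). Without line B3Bd15N their r was 0.110, and without the lines with 2 titles their rho was 0.0849 (permutation adjusted p = 0.721). Zfp42 and Tbx3 had r = 0.168 and rho = 0.156, and Tbx3 and Dppa3 had r = -0.0788 and rho = -0.0684. Many values tied at 0 limit what these correlations can show.

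Single CpGs were available for Nanog alone. The CpG table held 7917 CpGs, each with a value in every line, and 3 of them lay in the Nanog region, at positions 122707027, 122707066 and 122707134 of chromosome 6, which are 462, 423 and 355 bases before the gene start and upstream of the promoter window printed above. The most distal CpG had 0.263% ± 0.959 (SD, n = 85), with 75 lines at 0 and a highest value of 5.88% in line B2d27. The middle CpG had 0.395% ± 1.07 (SD, n = 85), with 69 lines at 0 and its highest value, 5.56%, in the same line. The CpG nearest the gene had 0.422% ± 1.32 (SD, n = 85), with 72 lines at 0 and a highest value of 8.93% in line B1dB33. With the highest line of each CpG left out, the mean was 0.321% for this CpG, 0.334% for the middle CpG and 0.196% for the most distal (n = 84 each). The order of the middle CpG and the CpG nearest the gene thus rested on single lines, while the most distal CpG stayed lowest. At Nanog 57 lines had all 3 CpGs at 0, 8 lines had at least 2 above 0 and 3 lines had all 3 above 0. Between prefixes 3576 of 7917 CpGs (45.2%) were called by limma's F test, and 0 of these 3 were, also at an unadjusted p under 0.05 (adjusted p = 0.534, 0.423 and 0.227). All 19 B3B lines were at 0 at the most distal CpG, and at the CpG nearest the gene 27 of 28 B1 lines and 11 of 18 B2 lines were at 0.
The mean of the 3 CpGs was close to the deposited region average over lines (0.360% for both) but less so line by line, with r = 0.708 and a mean absolute difference of 0.268 points. In 8 of the 57 lines with all 3 CpGs at 0 the region average was above 0, so the average was not made from these 3 values alone.

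Another target region lay 1731 bases from the Tbx3 region, over Tbx3os1 (chr5:119668612-119669111), in the category named Cancer. It ranged from 0 to 8.32% with a median of 1.29% and a mean of 1.66% ± 1.45 (SD, n = 85), and 2 lines were at 0, against 51 at the Tbx3 region itself. That neighbouring region was called both between prefixes (limma adjusted p = 0.00673) and for its slope on the library mean, 0.39 ± 0.06 (SE; limma adjusted p = 3.64e-08), while the Tbx3 region was called for neither. The difference between them was not tested.

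A list of 40 other genes was looked up, which held pluripotency network genes such as Pou5f1, Sox2, Klf4, Esrrb, Tfcp2l1 and Prdm14. Of these 40, 2 were covered by a target region, Otx2 and Esrrg. Both were called for a rise with the library mean, as were 778 of all 819 regions (95%). Otx2, a transcription factor of the primed and early neural state, had 0.822% ± 0.625 (SD, n = 85), a level like that of Zfp42, with 7 lines at 0. Its slope was 0.16 ± 0.05 (SE; limma adjusted p = 0.00311), the same size as the Zfp42 slope with a smaller error, and it was not called between prefixes (adjusted p = 0.711). Esrrg, an orphan nuclear receptor gene, was far more methylated at 34.4% ± 15.9 (SD, n = 77), with a slope of 0.95 ± 0.11 (SE; limma adjusted p = 2.28e-13) and a prefix adjusted p of 0.0388.

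The regions whose values ran most like each member across lines are given as a description, by Spearman's rho over lines with both values. For Nanog they were at Prmt8 (rho = 0.515), Kash5 (0.468) and Gdpgp1 (0.427), each over 85 lines, beside a median rho of 0.178 over 822 regions. The closest to Zfp42 were at Tbc1d15 (rho = 0.577), Fam178b (0.548) and Rbmxl2 (0.515), over 80 lines, beside a median of 0.208. Tbx3 had no region above rho = 0.360, which was at Dis3, followed by Atpif1 (0.321) and Prr13 (0.313), over 83 lines, beside a median of 0.0485. For Dppa3 the whole panel was closer, with a median rho of 0.578 over 814 regions, and the nearest were at Npas1 (rho = 0.749, 64 lines), Gm38708 (0.744, 64 lines) and Igfbp6 (0.744, 63 lines). All these values share the library of each line and its overall methylation.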

How the data were processed

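The authors deposited methylation fractions (beta values, 0 to 1) for 7917 CpGs and, in a second table, averages over 868 regions, which are fractions of the same kind with missing entries; both have 85 columns. The submitters' processing notes name mm10, Bowtie2, Bismark and Trim Galore 0.6.4, with no roles or settings. Both deposited tables are named as filtered at a coverage of 10, and depth per value is unknown. A value that rests on few reads moves in larger steps than one that rests on many, which adds to the spread between lines.

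Of the 85 columns 44 matched 1 title; the other 41 (16 with 2 titles, 24 with a final N that the title lacks, 1 with no title) were used by prefix alone. No columns were identical. Nothing states that columns came from separate cultures, so the p-values reflect the spread among columns, which may be partly technical.

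Fractions were reported as percent. Region and CpG fits used R 4.3.3 and limma 3.58.1. The deposited fractions were first put on the log2 odds scale, log2((f + 0.01)/(1 - f + 0.01)) for a fraction f. Features present in 50% of lines or more were fitted, with Benjamini-Hochberg adjustment over all of them and a threshold of 0.05; SE is of the limma slope. Lines without a value at a region were left out of its fit. Permutation tests were two-sided with 100000 resamples (NumPy 2.4.6). The tests were checked on simulated data. All 4 members were named, with the highest and lowest of their CpGs. Also named were the 3 regions most alike by rho over at least 40 lines and the target regions within 500 kb. The covered genes of the list of 40 were named too. The members and lists were chosen with earlier results of these data known. Promoter windows were matched by gene symbol for 2 of 4 members. Alternatives covered the offset, the scale, missing values, the columns used, covariates and the source of the region average.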

Additional observations from a re-analysis of the deposited data

How the results depend on the processing

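Across 34 results and 281 alternatives, 255 kept their direction and their side of the threshold (counts within 1.5 times); the alternatives on missing regions, on the lines with the highest Zfp42 or Dppa3 value on each line left out and on 1 column for each line name were chosen after seeing the data. The number of regions called between prefixes fell from 666 to 2 among columns with a final N and to 22 with the library mean as a covariate. The number of CpGs fell from 3576 to 2314 without the lines with 2 titles, 1801 in columns without a final N, 21 with that covariate and 0 with a final N (limma; 1655 at an unadjusted p under 0.05); the cause was not tested. The Dppa3 prefix call was lost (limma adjusted p) on untransformed fractions (0.0741), with a final N (0.534), with the covariate (0.843) and in lines with at most the median number of missing regions (0.221). Its slope on the library mean stayed past the threshold under every alternative in which it was tested. Slopes of Tbx3 changed sign with a final N (-0.0031), with prefix as a covariate (-0.022) and in lines with few missing regions (-0.018), where that of Nanog did too (-0.0073); none of these was called in either form. With each line left out in turn, r with the library mean ran from -0.0586 to 0.0670 for Tbx3 and from 0.602 to 0.655 for Dppa3. For pairs, it ran from -0.0255 to 0.110 for Nanog and Zfp42 (-0.0816 without the lines with 2 titles), from 0.196 to 0.351 for Nanog and Tbx3, and from 0.198 to 0.324 for Zfp42 and Dppa3. Nanog with Tbx3 (r = 0.345) and Zfp42 with Dppa3 (r = 0.514) passed 0.05 without the lines with 2 titles. Nanog minus Zfp42 lost its call there (-0.332) and in columns without a final N (-0.298). The median difference of Nanog minus Zfp42, Nanog minus Tbx3 and Zfp42 minus Tbx3 was 0. Dppa3 was not tested at 80% presence, presence settings leave the CpG table as it is, and recomputed averages exist for Nanog alone. Lines could not be paired across prefixes because the columns carry no replicate number that groups share. Pairing was within lines alone, for differences between members and from the Lineage-associated regions.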
